A study of Mus musculus with 6 samples.

Results

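The MHC class II antigen presentation genes were taken as 10 named genes of 18697 in a count table from prostates of mice with experimental autoimmune prostatitis. They were chosen by name: the class II chains H2-Aa, H2-Ab1 and H2-Eb1, the invariant chain Cd74, the loading factors H2-DMa, H2-DMb1 and H2-DMb2, their modulators H2-Oa and H2-Ob, and the master regulator Ciita. All 10 were found in the table by symbol, and 8 of 10 passed the filter on low counts, which H2-Oa and H2-Ob did not. This is an autoimmune model of chronic inflammation of the gland, and mice of both groups carried it. The VUF11207 group was injected intraperitoneally with this synthetic activator of CXCR7, an atypical chemokine receptor, at 5 mg per kg per day for 14 days. The DMSO group was injected with the solvent in equal amount over the same days. The sources used here give neither strain nor age. Each group held 3 libraries of whole prostate tissue. The DMSO libraries were replicates 2 and 3 and a library called the unnumbered DMSO library here. Its column name gives the group and a number, but no sample label carries that name. By elimination it would be the remaining DMSO replicate, which the labels do not state. Which animal gave which library is not stated, so a p-value covers only the spread between libraries, which may be technical.

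MHC class II molecules are pairs of an alpha and a beta chain that carry peptides from the endosomes of antigen-presenting cells to the cell surface, where CD4+ T cells read them. B cells, dendritic cells and activated macrophages make them constitutively or on demand, and interferon gamma induces them in other cells through Ciita, a co-activator that binds no DNA itself. The invariant chain fills the groove during transport, H2-DM exchanges its last fragment for peptide, and H2-DO restrains H2-DM, mainly in B cells.

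Some promoter letters, which the choice of genes did not use, recurred among the class II genes. Their promoters carry an X box, bound by RFX, and a Y box, bound by NF-Y, on which Ciita assembles. RefSeq promoter windows (GRCm38.p6, 250 bases before to 50 after each start) were matched for 7 of the 10 genes, H2-Aa, H2-Eb1, H2-DMa, H2-DMb1, H2-DMb2, H2-Oa and H2-Ob. The stretches below are shown because they line up on the Y box, read 5′ to 3′ on the coding strand, with the letters AACNGATG (a core of the X box region, chosen after these sequences were read) and ATTGG (the Y box) in capitals.
H2-Aa (chr17:34287857-34287916, minus strand): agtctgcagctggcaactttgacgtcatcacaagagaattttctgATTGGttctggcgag
H2-Eb1 (chr17:34305763-34305822, plus strand): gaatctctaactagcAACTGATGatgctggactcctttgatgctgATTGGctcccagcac
H2-DMb1 (chr17:34153085-34153144, plus strand): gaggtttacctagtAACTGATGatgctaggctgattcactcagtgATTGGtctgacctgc
H2-DMb2 (chr17:34145114-34145173, plus strand): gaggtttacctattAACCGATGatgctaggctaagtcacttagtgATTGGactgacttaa
H2-Oa (chr17:34092291-34092350, plus strand): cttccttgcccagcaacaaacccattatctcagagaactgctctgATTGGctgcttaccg
H2-Ob (chr17:34238803-34238862, plus strand): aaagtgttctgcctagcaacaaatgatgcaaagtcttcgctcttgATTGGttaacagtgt

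ATTGG, searched on both strands, was in the windows of 7 of 7 class II genes and in 37.4% of all 32851 promoter windows. That share is per window, not per gene. For H2-DMa the ATTGG lay in a window of another start within the gene, which is not printed. AACNGATG, on both strands, was in H2-Eb1, H2-DMb1 and H2-DMb2 and in 2.32% of all windows. AACNGATG with ATTGG 12 to 30 bases after it was in those 3 genes and in 4 other genes, 7 windows or 0.0213% of all. Because AACNGATG was chosen from these sequences, its rarity elsewhere is no test. Other forms of the X box were not searched, so a stretch without AACNGATG may still hold one. The gap between the letters was 22 bases in H2-Eb1 and 23 bases in H2-DMb1 and H2-DMb2. The ATTGG of the 6 stretches began from 43 bases before the RefSeq start in H2-Oa to 90 bases before it in H2-DMb2. The GENCODE gene starts given below differ from these RefSeq starts for some genes. A match is a description of letters, not of binding.

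Total counts per library ranged from 20308018 to 33368058, and levels are given as CPM after TMM scaling, a normalised read count. The specimens differed in content. Genes of a seminal vesicle list took from 3.11% to 27.8% of the counts in the VUF11207 libraries and from 0.695% to 63.3% in the DMSO libraries. The highest of these shares was that of DMSO replicate 2, whose TMM factor was 0.425. All 7 prostate secretory and all 8 epithelial markers had counts in every library, as had 9 of 10 skeletal muscle markers. Their part in the values of the class II genes was not tested.

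The chain genes were high in 1 library of each group. H2-Aa, which encodes the alpha chain of I-A, was at 29.5, 164 and 32.3 CPM in VUF11207 replicates 1, 2 and 3, against 168, 53.1 and 54.5 CPM in the unnumbered DMSO library and DMSO replicates 2 and 3. H2-Ab1, its beta chain partner, was at 19.0, 128 and 27.4 CPM with VUF11207, against 130, 32.7 and 38.2 CPM with DMSO, in the same order. The groups overlapped for both genes: VUF11207 replicate 2 and the unnumbered DMSO library stood at nearly the same level, VUF11207 replicates 1 and 3 were lowest, and DMSO replicates 2 and 3 lay between. H2-Eb1, the beta chain of I-E, followed with 30.5, 142 and 33.9 CPM in the VUF11207 libraries and 142, 57.7 and 58.4 CPM in the DMSO libraries. Cd74, the invariant chain, was at 77.4, 339 and 84.9 CPM with VUF11207 and at 318, 141 and 126 CPM with DMSO. For Cd74, too, the groups overlapped, with VUF11207 replicate 2 highest and VUF11207 replicate 1 lowest, 4.38-fold apart. These orders depended on the scaling. Scaled by library totals alone, DMSO replicate 2 was instead the lowest library, at 22.6 CPM for H2-Aa, 13.9 for H2-Ab1, 24.5 for H2-Eb1 and 59.8 for Cd74, and also for H2-DMa, at 3.99 CPM.

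**Figure D1:**
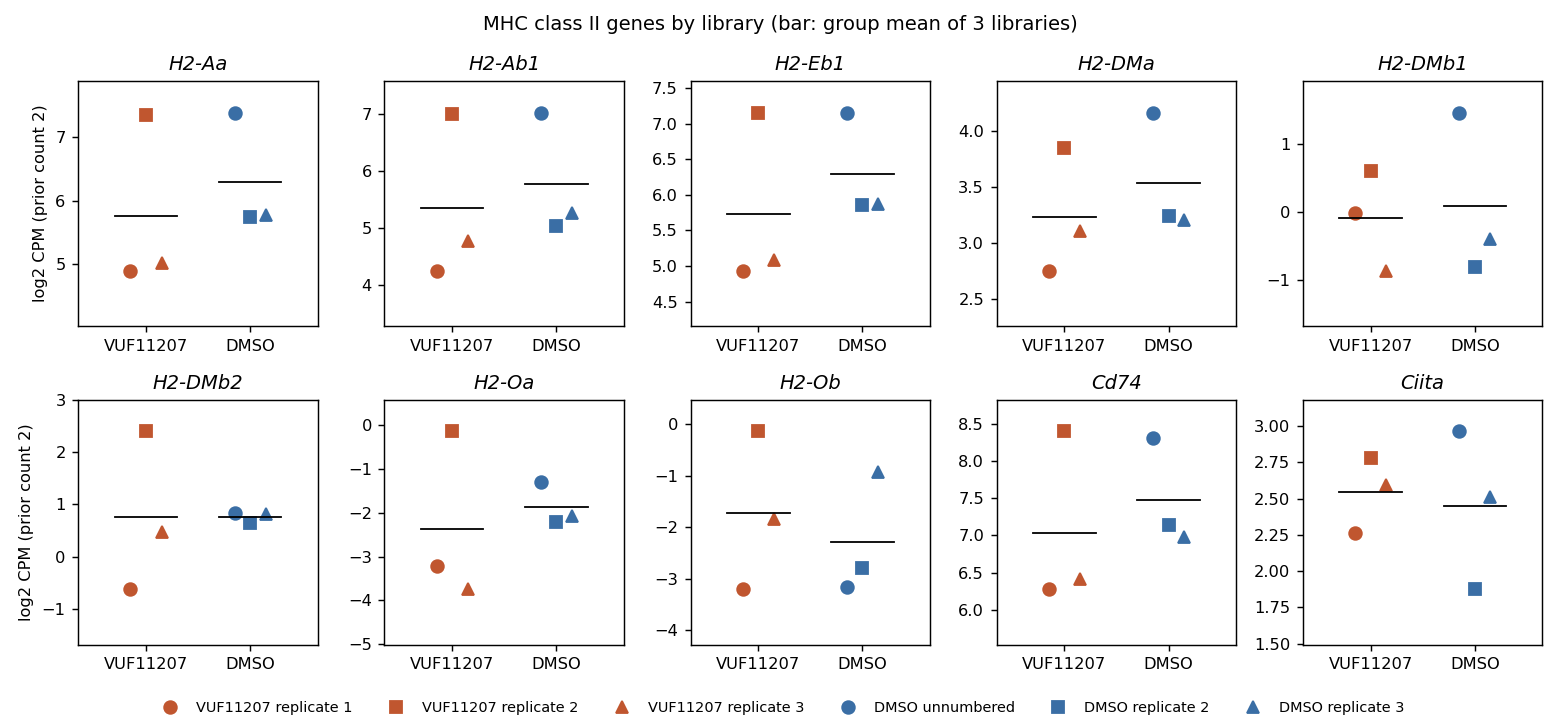
Expression of the 10 class II genes in each library, as log2 CPM with a prior count of 2 (y axis), for VUF11207 and DMSO (x axis), with a point per library and a bar at the mean of 3 libraries. VUF11207 replicate 2 and the unnumbered DMSO library are the 2 highest for H2-Aa, H2-Ab1, H2-Eb1, H2-DMa, H2-DMb1, H2-DMb2, H2-Oa, Cd74 and Ciita, while H2-Ob is highest in VUF11207 replicate 2 and DMSO replicate 3.

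With TMM scaling, Ciita varied less than the genes it controls. It was at 4.73, 6.78 and 5.95 CPM with VUF11207, against 7.73, 3.59 and 5.62 CPM with DMSO, so its highest and lowest libraries were 2.15-fold apart, against 6.83-fold for H2-Ab1. The unnumbered DMSO library was again highest, but the lowest was DMSO replicate 2, not VUF11207 replicate 1. H2-DMa came nearest to Ciita, with a 2.67-fold span. Scaled by library totals alone, Ciita ran from 1.53 CPM in DMSO replicate 2 to 10.3 CPM in the unnumbered DMSO library. H2-DMa then ran from 3.99 to 23.7 CPM between the same libraries, a narrower span than that of Ciita.

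The loading factor H2-DM is a pair of H2-DMa with the product of H2-DMb1 or H2-DMb2. H2-DMa was at 6.66, 14.3 and 8.52 CPM with VUF11207 and at 17.8, 9.37 and 9.15 CPM with DMSO, with the same high libraries as the chains and a 2.67-fold span. H2-DMb1 was at 0.913, 1.44 and 0.473 CPM with VUF11207 and at 2.66, 0.493 and 0.679 CPM with DMSO. H2-DMb2 was at 0.575, 5.20 and 1.32 CPM with VUF11207 and at 1.70, 1.48 and 1.68 CPM with DMSO. The beta chain genes thus differed from each other in which library was highest, the unnumbered DMSO library for H2-DMb1 and VUF11207 replicate 2 for H2-DMb2. Their promoters hold the same letters AACNGATG and ATTGG shown above, and over the 6 libraries their log2 CPM had r = 0.33 with each other. Of the counts of both genes together, H2-DMb2 held 38.6% (17 of the pair's counts, with 27 for H2-DMb1), 78.3% (155 and 43) and 73.6% (39 and 14) in VUF11207 replicates 1, 2 and 3. In the unnumbered DMSO library and DMSO replicates 2 and 3 it held 39.0% (46 and 72), 75.0% (21 and 7) and 71.2% (52 and 21). The exact (Clopper-Pearson) 95% intervals were 24.4% to 54.5% in VUF11207 replicate 1 and 30.1% to 48.4% in the unnumbered DMSO library, below those of the other 4 libraries, the lowest of which began at 55.1%. VUF11207 replicate 1's interval came within 1 percentage point of that bound. Such intervals cover counting error only. The column names of VUF11207 replicate 1 and the unnumbered DMSO library end in the same number. Whether that number marks a pair is not stated. In the mm10 transcripts of GENCODE M21, 22.7% of the distinct 50-base stretches of H2-DMb1 occur also in H2-DMb2, so counts of this pair are uncertain. The other 8 genes shared no such stretch with another gene, except 0.488% of those of H2-Aa.

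H2-Oa and H2-Ob, the chains of H2-DO, were close to the limit of detection. H2-Oa had 1, 25 and 0 counts in VUF11207 replicates 1, 2 and 3, against 9, 2 and 5 counts in the unnumbered DMSO library and DMSO replicates 2 and 3. The 0 in VUF11207 replicate 3 allows up to 0.101 CPM, taking 3 counts as the limit. H2-Ob had 1, 25 and 6 counts with VUF11207, against 1, 1 and 14 counts with DMSO. H2-Ob was the only one of the 10 genes for which the unnumbered DMSO library was not among the 2 highest, and DMSO replicate 3 took that place.

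Per kb of exon, using GENCODE M21 exon lengths for mm10, the mean level over the 6 libraries ran in the order Cd74, H2-Eb1, H2-Ab1, H2-Aa, H2-DMa, H2-DMb2, H2-DMb1, Ciita, H2-Oa, H2-Ob. Cd74 averaged 99.5 CPM per kb with VUF11207 and 116 with DMSO, and H2-Eb1, the highest chain, 35.4 with VUF11207 and 44.3 with DMSO. H2-DMa was at 2.85 CPM per kb with VUF11207 and 3.51 with DMSO. Ciita was at 0.610 CPM per kb with VUF11207 and 0.593 with DMSO. H2-Ob was lowest, at 0.0666 CPM per kb with VUF11207 and 0.0347 with DMSO. Neighbours in this order were close for H2-Ab1 and H2-Aa, at 24.4 and 22.0 CPM per kb over the 6 libraries, and for H2-DMb1 and Ciita, at 0.661 and 0.602. Those differences were smaller than the spread between libraries.

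The question of whether CXCR7 activation bears on class II expression was addressed by comparing VUF11207 with DMSO, in a fit across all 13753 genes that passed the filter. None of the 8 class II genes in that fit passed an adjusted p under 0.05 (edgeR quasi-likelihood test, Benjamini-Hochberg, two-sided), and neither did any other gene, a background of 0%. The unadjusted edgeR p was under 0.05 for 0 of the 8 class II genes and for 196 of all genes, or 1.43%. DESeq2 called 4 genes and limma voom 0, none of them a class II gene. No class II gene had groups that did not overlap, against 5.57% of all genes tested. Of the 8 genes, 6 had a log2 fold change below 0, against 55.3% of all genes, and their median was -0.25, against -0.041 over all genes.

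H2-Aa averaged 75.4 ± 77.0 CPM with VUF11207 and 91.8 ± 65.9 CPM with DMSO (SD, n = 3 each). Its log2 fold change was -0.28 ± 0.80 (SE). Its 95% interval ran from -2.20 to 1.63. Cd74 averaged 167 ± 149 CPM with VUF11207 and 195 ± 107 CPM with DMSO (SD, n = 3 each), with a log2 fold change of -0.22 ± 0.67 (SE). The interval of Cd74 ran from -1.82 to 1.38, so those of both genes include a log2 change of 1 in either direction. The narrowest interval was that of Ciita, from -0.85 to 0.93 around 0.040. The other log2 fold changes in the filtered fit were -0.20 for H2-Ab1, -0.32 for H2-Eb1, -0.30 for H2-DMa, -0.45 for H2-DMb1 and 0.54 for H2-DMb2, with SE from 0.40 to 0.86. In the fit without the filter H2-Oa was at 0.44 ± 1.57 and H2-Ob at 0.88 ± 1.40 (SE). The direction rested on single libraries. Without VUF11207 replicate 2 the log2 fold change of H2-Aa was -1.57 and that of Cd74 -1.26, and without the unnumbered DMSO library they were 0.49 and 0.33, none of them past the threshold.

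**Figure D2:**
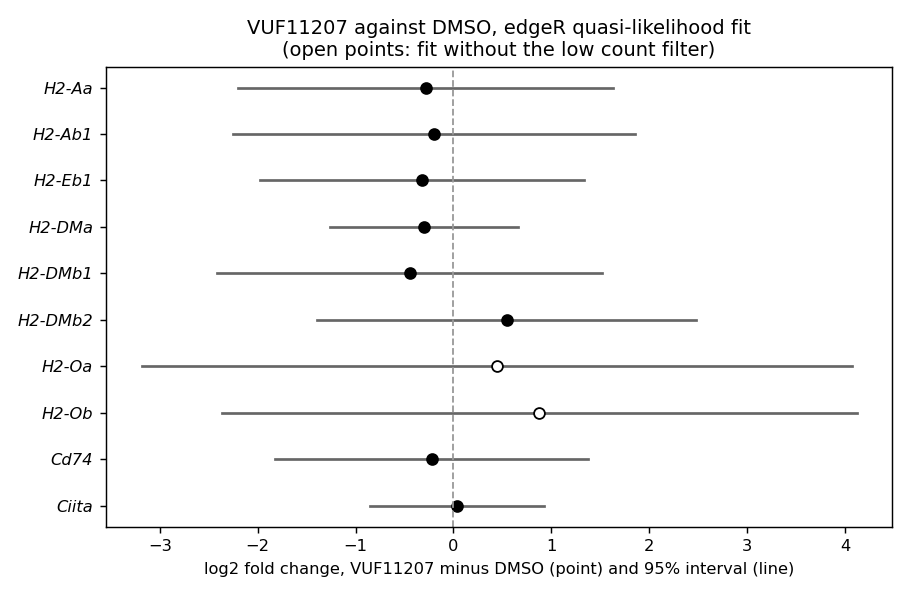
Log2 fold change of VUF11207 over DMSO for each class II gene (x axis, genes down the page), with 95% intervals from edgeR as lines and open points for the fit without the low count filter. Each of the 10 intervals includes 0, and that of Ciita, from -0.85 to 0.93, is the narrowest.

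Count ratios between class II genes within a library do not depend on scaling. The ratios of H2-Aa, H2-Eb1 and Cd74 to H2-Ab1 varied less than the levels of these genes, whereas that of H2-DMb2 to H2-DMb1 spanned 5.73-fold and that of H2-Oa to H2-Ob, with 0.5 added to each count, ran from 0.0769 to 6.33. The count of H2-Aa was 1.56, 1.28 and 1.18 times that of H2-Ab1 in VUF11207 replicates 1, 2 and 3, and 1.29, 1.63 and 1.43 times in the unnumbered DMSO library and DMSO replicates 2 and 3. That of H2-Eb1 was 1.61, 1.11 and 1.24 times that of H2-Ab1 with VUF11207, and 1.10, 1.77 and 1.53 times with DMSO. Cd74 had 4.07, 2.64 and 3.10 counts per count of H2-Ab1 with VUF11207 and 2.45, 4.30 and 3.29 with DMSO. The 2 lowest ratios of H2-Eb1 and of Cd74 to H2-Ab1 were those of VUF11207 replicate 2 and the unnumbered DMSO library, whereas the lowest of H2-Aa to H2-Ab1 was that of VUF11207 replicate 3. The groups overlapped for all 3 ratios. Two-sided exact permutation tests of the log2 ratios gave p = 0.4 for H2-Aa, 0.8 for H2-Eb1 and 1 for Cd74, each with an adjusted p of 1 over the 6 ratios compared. With 3 libraries against 3 this test cannot go below 0.1.

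Among all other genes, the one whose levels lay closest to the class II chains was Ptprc, which encodes CD45, the surface phosphatase of all nucleated blood cells. Likeness was Pearson's r over the 6 libraries between a gene's log2 CPM and the mean of H2-Aa, H2-Ab1, H2-Eb1 and Cd74, ranked over 11554 genes. Ptprc had r = 0.9993, and r = 0.999 over 4 libraries without the 2 farthest from its own median. Ptprc was at 3.11, 15.5 and 3.82 CPM with VUF11207 and at 15.8, 5.85 and 5.98 CPM with DMSO. There were 24.9, 21.9 and 22.2 counts of Cd74 per count of Ptprc with VUF11207, and 20.1, 24.0 and 21.1 with DMSO, a span of 1.24-fold where Cd74 itself spanned 4.38-fold. For H2-Eb1 the ratio to Ptprc lay between 8.88 and 9.87 in all 6 libraries, and for H2-Aa between 8.46 and 10.6. That of H2-Ab1 ran from 5.59 to 8.27, a 1.48-fold span and the widest of the chains. H2-DMa and Ciita did not keep such a ratio: H2-DMa had 2.14, 0.922 and 2.23 counts per count of Ptprc with VUF11207 and 1.12, 1.60 and 1.53 with DMSO, and Ciita spanned 3.56-fold. These bulk libraries cannot tell fewer class II-bearing cells from less class II RNA per cell. The ranking was made on these libraries, so it carries no p. Ptprc was picked by its likeness to the mean of H2-Aa, H2-Ab1, H2-Eb1 and Cd74, so their steady ratios to it follow from that choice. H2-DMa and Ciita were not in that mean, so the contrast with them is no separate result.

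**Figure D3:**
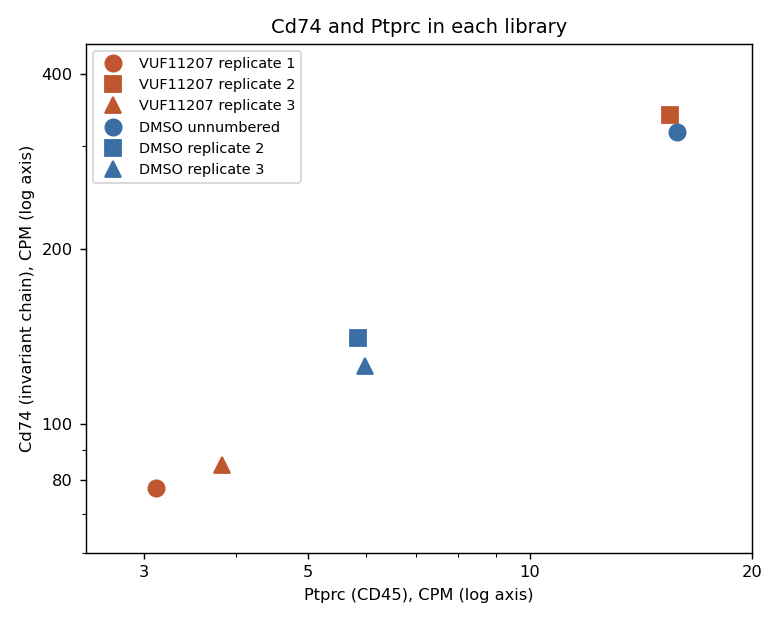
Cd74 (y axis) against Ptprc (x axis), both in CPM on log axes, with a point per library. Cd74 runs from 77.4 CPM in VUF11207 replicate 1 to 339 CPM in VUF11207 replicate 2, and the points keep between 20.1 and 24.9 counts of Cd74 per count of Ptprc. Ptprc was picked for its likeness to a mean that includes Cd74.

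The next genes by this measure were Lrrcc1 (r = 0.997), C1qb, a complement subunit made by macrophages (0.994), Skil (0.992), Prr3 (0.992), Coro1a, an actin-binding protein of leukocytes (0.989), Thbs1, which encodes thrombospondin (0.988), and Igf1 (0.987). Several of these spanned less than the class II genes: Skil spanned 1.72-fold and Lrrcc1 1.95-fold between their highest and lowest libraries, against 7.57-fold for Coro1a. For the genes named here, r without the 2 libraries farthest from a gene's own median ran from 0.927 for Skil to 0.992 for C1qb. Of the 11554 genes, 291 or 2.52% had an r over 0.9, and the points share their scaling and specimen content.

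Levels of cell type lists were read beside the class II level, each as log2 CPM centred on a gene's mean over the 6 libraries and averaged over the tested genes of the list. The class II level was -1.12, 1.27 and -0.89 in VUF11207 replicates 1, 2 and 3, against 1.26, -0.27 and -0.24 in the unnumbered DMSO library and DMSO replicates 2 and 3. Macrophage markers were at -0.57, 0.53 and -0.62 with VUF11207 and at 0.88, -0.43 and 0.21 with DMSO. T cell markers were at -0.76, 0.97 and -0.49 with VUF11207 and at 1.27, -0.61 and -0.38 with DMSO. Dendritic cell markers were at -0.76, 0.49 and -0.31 with VUF11207 and at 1.17, -0.77 and 0.19 with DMSO. All 3 lists were highest in the same 2 libraries as the class II genes. B cell markers had another order, -1.26, 1.50 and -0.46 with VUF11207 and 0.26, -1.16 and 1.11 with DMSO, in which DMSO replicate 3 came second, as it did for H2-Ob.

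Summed over the lists, 12 macrophage markers ranged from 139 to 296 CPM with VUF11207 and from 160 to 438 CPM with DMSO. The 12 dendritic cell markers ranged from 7.71 to 21.1 CPM with VUF11207 and from 7.05 to 25.7 CPM with DMSO. The 9 T cell markers found ranged from 19.9 to 75.6 CPM with VUF11207 and from 19.1 to 61.1 CPM with DMSO. Thy1 alone made most of this T cell sum in every library, at 17.3, 55.8 and 13.5 CPM with VUF11207 and 41.4, 19.8 and 12.3 CPM with DMSO. The 12 B cell markers ranged from 2.47 to 18.5 CPM with VUF11207 and from 4.09 to 12.1 CPM with DMSO. All 12 macrophage markers had counts in every library. The B cell marker Ms4a1, which encodes CD20 and was chosen after its values were seen, was at 0 in VUF11207 replicate 1 and DMSO replicate 2. Fcer2a, the most abundant of the list by mean CPM, had 36 and 34 counts in those libraries. Of the B cell list, 5, 0 and 0 genes were at 0 in VUF11207 replicates 1, 2 and 3, and 3, 4 and 0 in the unnumbered DMSO library and DMSO replicates 2 and 3. The part of these cells in the class II values was not tested. No marker of these 4 lists passed the threshold between VUF11207 and DMSO (edgeR), with medians of -0.47 for 12 macrophage, -0.65 for 8 dendritic cell, -0.15 for 8 T cell and 0.044 for 8 B cell markers tested.

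In the leukocyte list Cd52 stood apart. It was at 1161, 138 and 317 CPM with VUF11207 and at 85.2, 5742 and 531 CPM with DMSO, highest in the libraries with most seminal vesicle counts, VUF11207 replicate 1 and DMSO replicate 2. With the full list of 6 genes, the class II level minus the leukocyte level was -0.56, 0.67 and -0.017 with VUF11207 and 0.82, -0.54 and -0.38 with DMSO. Without Cd52, a choice made after its values were seen, it was -0.19, 0.19 and 0.034 with VUF11207 and 0.22, 0.12 and -0.38 with DMSO. Without Cd52 the differences spanned 0.60 on the log2 scale, against 2.39 for the class II level alone.

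**Figure D4:**
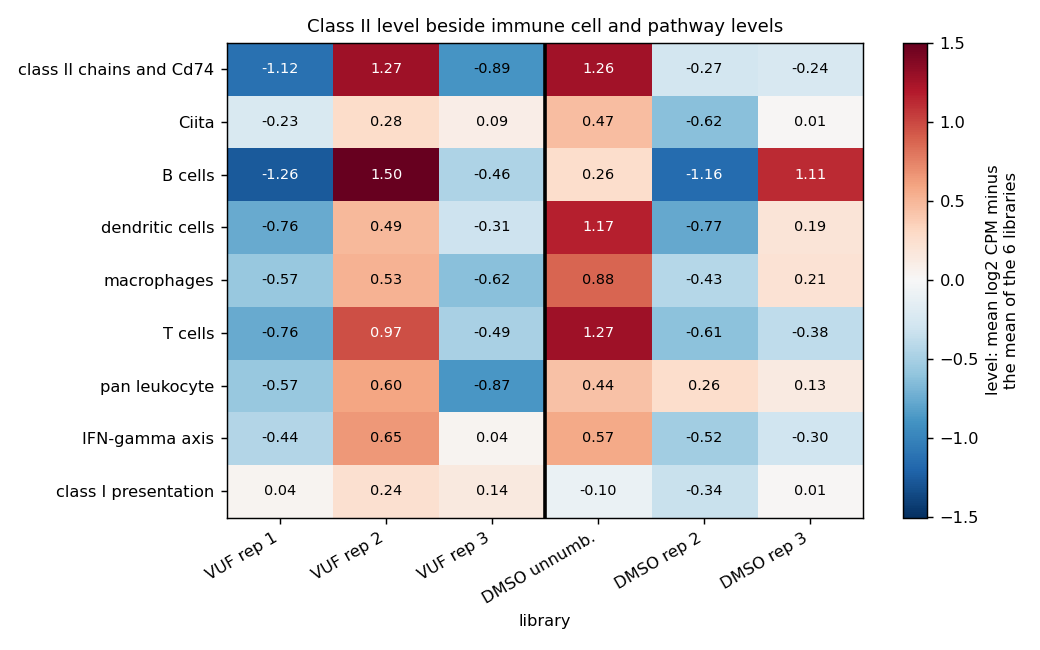
Level of the class II chains with Cd74, of Ciita and of 7 gene lists in each library (columns, VUF11207 left of DMSO), as mean log2 CPM centred over the 6 libraries. The class II level is 1.27 in VUF11207 replicate 2 and 1.26 in the unnumbered DMSO library and negative in the other 4, while class I presentation stays between -0.34 and 0.24.

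The pathway around the class II genes held 0 called genes. The factors that bind class II promoters with Ciita (Rfx5, Rfxap, Rfxank, the NF-Y subunits Nfya, Nfyb and Nfyc, and Creb1) had 3 of 7 members with positive and 4 with negative log2 fold changes, around a median of -0.095. The level of this list lay between -0.11 and 0.17 in the 6 libraries, a narrower range than that of the class II genes. Rfxank and Nfya, chosen after their values were seen, had groups that did not overlap, with log2 fold changes of -0.29 ± 0.21 and -0.35 ± 0.20 (SE). Of all genes tested, 5.57% had such groups. Nfyc, the most abundant, was at 25.6, 21.6 and 23.2 CPM with VUF11207 and at 16.2, 23.7 and 23.9 CPM with DMSO.

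Endosomal proteases and other genes of processing and turnover had 4 of 12 members positive and a median of -0.056. Ctsd, Cst3 and Ctsb, which encode cathepsin D, the protease inhibitor cystatin C and cathepsin B, were the most abundant and had log2 fold changes of -0.25 ± 0.29, -0.63 ± 0.40 and -0.092 ± 0.30 (SE). Ctsh and Marchf1 were chosen after their values were seen. Ctsh, cathepsin H, had no overlap between the groups, like 5.57% of all genes tested, and did not pass the threshold. It was at 57.0, 50.4 and 70.3 CPM in VUF11207 libraries and 30.3, 28.8 and 47.6 CPM in DMSO libraries. Its edgeR p was 0.027 before and 0.99991 after adjustment over all genes. Marchf1, the ubiquitin ligase that sends surface class II to degradation, was at 0.473, 3.42 and 0.338 CPM with VUF11207 and at 3.77, 0.775 and 0.937 CPM with DMSO, high in the libraries where the chains were high.

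Co-receptor and co-stimulation genes had 3 of 8 tested members positive, of 11 in the list, and a median of -0.052. Cd4, the T cell co-receptor of class II, was at 2.13, 3.79 and 0.744 CPM with VUF11207 and at 2.37, 0.211 and 4.20 CPM with DMSO. Interferon gamma receptor, signalling and target genes had 8 of 15 tested members positive and a median of 0.060. Jak1, Ifngr2 and Ifngr1, the most abundant, had log2 fold changes of -0.18 ± 0.41, -0.073 ± 0.28 and -0.59 ± 0.47 (SE). Ifng itself, chosen after its values were seen, was at 0.403 CPM in VUF11207 replicate 2 and at 0.925 CPM in the unnumbered DMSO library and had 0 counts in the other 4 libraries. The interferon-induced chemokine Cxcl9, likewise chosen, was at 1.59, 34.9 and 3.99 CPM with VUF11207 and at 39.2, 1.83 and 3.23 CPM with DMSO.

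The class I route, which presents cytosolic peptides and is controlled by Nlrc5 rather than Ciita, had a level, averaged over 15 genes, of 0.042, 0.24 and 0.14 with VUF11207 and -0.10, -0.34 and 0.014 with DMSO, a range of 0.58. Single genes of the route varied more: B2m spanned 8.43-fold and Nlrc5, chosen after its values were seen, 14.8-fold, both above the 6.83-fold of H2-Ab1. Nlrc5 was at 9.30, 4.63 and 2.43 CPM with VUF11207 and at 5.44, 0.775 and 11.4 CPM with DMSO. Of 15 members 11 were positive, the median log2 fold change was 0.33 and none passed the threshold. B2m, the light chain of class I, was at 4333, 2187 and 3044 CPM with VUF11207 and at 1802, 15190 and 2672 CPM with DMSO, highest in DMSO replicate 2, the library with most seminal vesicle counts. The heavy chain gene H2-D1, chosen after its values were seen, was at 630, 519.8 and 685 CPM with VUF11207 and at 353, 477 and 637 CPM with DMSO.

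Both routes are encoded side by side. In mm10 (GENCODE M21), 8 of the 10 genes lie on chromosome 17 within 224 kb, from 34092340 at the start of H2-Oa to 34316674 at the end of H2-Eb1, Ciita lies on chromosome 16 from 10480059 to 10528418, and Cd74 on chromosome 18 from 60803848 to 60812652. On chromosome 17, H2-Ab1 lies from 34257689 to 34269419, H2-Aa from 34282744 to 34287823 and H2-Eb1 from 34305867 to 34316674. Between the class II genes lie 5 other protein-coding genes, Brd2, Psmb9, Tap1, Psmb8 and Tap2, the last 4 of which are immunoproteasome subunits and peptide transporters of the class I route. Their likeness to the class II level ran from r = -0.79 for Brd2 to 0.55 for Psmb9. That of the class II genes of the region ran from 0.315 for H2-Ob to 0.999 for H2-Aa. The ranges overlapped through H2-Ob alone. H2-Ob had from 1 to 25 counts per library and H2-Oa from 0 to 25, and neither passed the low count filter. The other class II genes of the region were H2-DMb1 (0.793), H2-DMb2 (0.794), H2-Oa (0.925), H2-DMa (0.968), H2-Ab1 (0.986) and H2-Eb1 (0.995), with each chain set against the other chain genes and Cd74. Cd74, on another chromosome, had r = 0.995 against the 3 chains. Brd2 overlaps H2-DMa on the other strand and Psmb9 overlaps Tap1, and with the strand setting unknown their reads cannot be told apart there. Tap1 and Tap2, chosen after their values were seen, had no overlap between the groups, like 5.57% of all genes tested. Tap2 was at 37.2, 38.5 and 43.9 CPM with VUF11207 and 25.9, 28.3 and 33.6 CPM with DMSO, with a log2 fold change of 0.45 ± 0.18 (SE). Neither passed the threshold.

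**Figure D5:**
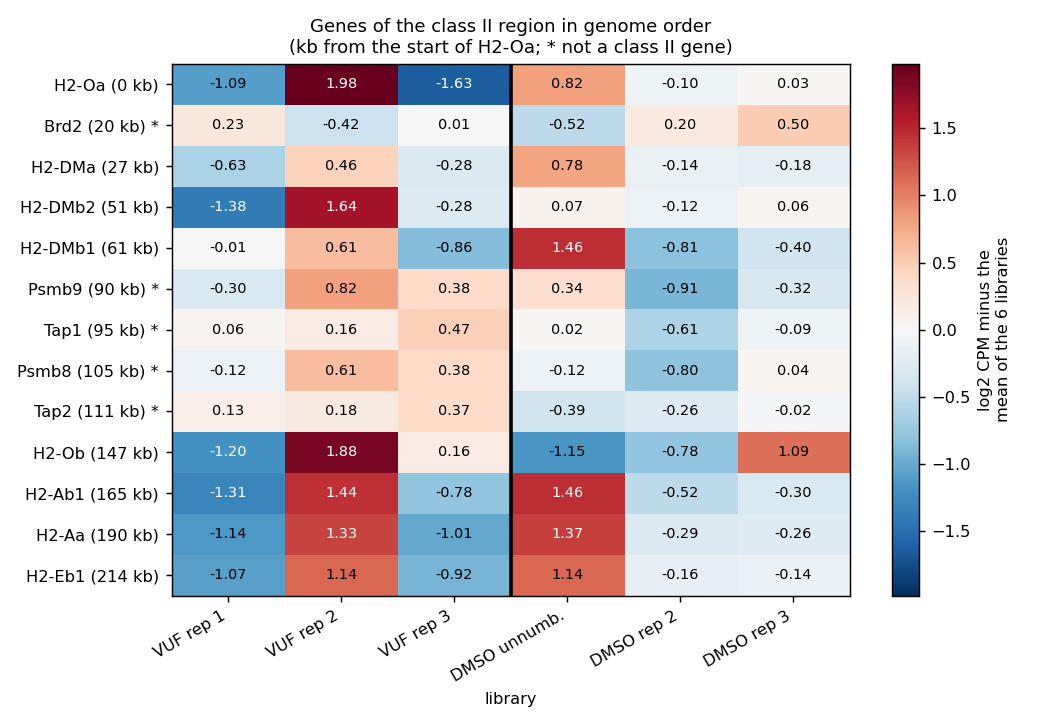
Genes of the class II region on chromosome 17 in genome order (rows, with kb from the start of H2-Oa) and the 6 libraries (columns, VUF11207 left of DMSO), as log2 CPM centred over the 6 libraries. H2-Ab1, H2-Aa and H2-Eb1 are high in VUF11207 replicate 2 and the unnumbered DMSO library, while Brd2 is lowest in those 2 libraries.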

How the data were processed

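RNA sequencing libraries of prostate tissue, 3 with VUF11207 and 3 with DMSO, were analysed. Per the labels' protocols, TRIzol extraction was followed by the VAHTS Universal V6 kit. The submitters' processing notes name fastp, HISAT2, HTSeq and mm10, and the sources used here give no versions, annotation, strand setting or handling of multi-mapped reads. The authors deposited whole-number counts per gene symbol, not normalised, and 5 libraries' own files were identical to the table's columns. The unnumbered DMSO library entered its group without a replicate number. Total counts were 29311438, 23915765 and 25979464 with VUF11207 and 20308018, 33368058 and 25175803 with DMSO.

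Counts were scaled by TMM, filtered with filterByExpr (13753 genes left) and compared by edgeR 4.0.16 quasi-likelihood with robust dispersions, Benjamini-Hochberg over all genes and a threshold of 0.05. SEs were computed as the fold change over the root of F. Alternatives were DESeq2 1.42.0, limma 3.58.1 voom, other scalings and filters, left-out libraries, and the replicate number as a block. A planned family of 10 correlations over libraries is given as a count only, because the class II level put 2 libraries apart from the other 4. Named genes were the 10 members, up to 3 most abundant genes per list and the 8 genes most alike, without Gm, Rik or LOC placeholder names or genes averaging under 1 in log2 CPM. Any gene outside this rule is said to be chosen after its values were seen. A result of 1 listed marker gene is not reported here. Members and lists were chosen with earlier results of these data known. Software was R 4.3.3, Python 3.11.15 and SciPy 1.17.1.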

Additional observations from a re-analysis of the deposited data

How the results depend on the processing

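No class II gene passed the threshold under any of 16 alternatives (155 values, smallest adjusted p 0.895), but 27 of these values had the other sign. DESeq2 called 4 genes and scaling by library totals 3, none of them a class II gene, where edgeR with TMM called 0. With totals the median over all genes was 0.14, and DMSO replicate 2 was lowest for Cd74 and the 3 chains. Of 10 correlations of the class II level with other levels (exact permutation test, Benjamini-Hochberg) 0 passed with TMM, where the smallest adjusted p was 0.0833, and 8 passed with totals. With each library left out in turn, the log2 fold change ran from -1.57 to 0.49 for H2-Aa, -1.52 to 0.72 for H2-Ab1, -1.41 to 0.25 for H2-Eb1, -1.26 to 0.33 for Cd74, -0.67 to 0.088 for H2-DMa, -0.89 to 0.67 for H2-DMb1, -0.77 to 1.03 for H2-DMb2, -3.32 to 1.02 for H2-Oa, -0.67 to 2.71 for H2-Ob and -0.19 to 0.33 for Ciita. The median of the 8 genes ran from -1.07 without VUF11207 replicate 2 to 0.41 without the unnumbered DMSO library. The log2 ratio differences ran from -0.34 to 0.0080 for H2-Eb1 to H2-Ab1, -0.23 to 0.18 for Cd74 to H2-Ab1, -0.44 to 0.13 for H2-DMa to both H2-DMb genes and -0.25 to 0.49 for class II minus leukocyte level. The same difference without Cd52, added after seeing the data, was 0.019, against 0.064. H2-DMb2 turned to -0.049 with limma voom, and Ciita to -0.045 without the 2 libraries with most seminal vesicle counts. The cause was not tested. A fit with the replicate block used 4 libraries, replicates 2 and 3 of each group, and gave 0.45 for H2-Aa, 0.76 for H2-Ab1, 0.27 for H2-Eb1, 0.26 for H2-DMa, 0.50 for H2-DMb1 and 0.36 for Cd74, with 0 genes called. Libraries of the same replicate number did not deviate together (r = -0.33 for number 2 and 0.053 for number 3). The column name of the unnumbered DMSO library ends in the same number as that of VUF11207 replicate 1, and these had r = -0.59. The H2-DMb2 share was close between libraries so matched (VUF11207 and DMSO): 38.6% and 39.0%, 78.3% and 75.0%, 73.6% and 71.2%. Unmatched libraries could be as close, with 73.6% in VUF11207 replicate 3 and 75.0% in DMSO replicate 2, so these shares are no test of pairing. The labels do not say whether the numbers mark pairs, and no fit paired all libraries.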
